A study of Mus musculus with 8 samples.

Results

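The surrogate light chain genes of the mouse, Igll1, Vpreb1, Vpreb2 and Vpreb3, were followed in sorted bone marrow cells of WT and lactoferrin knockout (Lf-/-) mice. They were selected by gene symbol, and all 4 were present among the 52550 genes of every library. All 4 also passed the filter on low values (at least 1 FPKM in at least 2 libraries), as did 10793 genes in total. FPKM is the number of fragments relative to the length of the transcript and to all fragments of the library.

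The surrogate light chain stands in for the conventional kappa or lambda light chain before the light chain genes are rearranged. Igll1 encodes lambda5, its constant-region-like part, and Vpreb1 and Vpreb2 encode the variable-region-like part that pairs with it. Together with the mu heavy chain (Ighm) and the signaling chains Cd79a and Cd79b they form the pre-B cell receptor, which tests a newly made heavy chain. The genes are known as markers of pro-B and early pre-B cells and are silenced as cells move on to a conventional light chain. Vpreb3 encodes a related protein that associates with immunoglobulin chains inside the cell and is not a part of the surface receptor.

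The libraries came from untreated C57BL/6J mice, either WT or lacking the lactoferrin gene Ltf, with littermates as controls. Pre-pro-B cells had 2 libraries of each genotype, and pro-B cells had 2 of Lf-/- mice and 1 of WT mice, since WT pro-B replicate 2 was not analysed here. The study sorted pre-pro-B cells by AA4.1, B220 and further surface markers, and its pro-B gate was B220+ CD43+ IgM-. The age of the mice is not given in the sources used here, and the methods and the labels differ on the number of mice per group. The labels carry the numbers 1 and 2 at both stages without saying whether a number marks the same mouse, so p-values measure the spread between these libraries, which may in part be technical. Ltf differed by -4.38 on the log2 scale between Lf-/- and WT cells in the average of stages (SE 0.36, adjusted p = 0.0224, limma), at 88.2 to 168 FPKM in the 4 Lf-/- libraries and 2143 to 2731 FPKM in the 3 WT libraries.

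Transcripts of other cell types made up much of each library. The 18 neutrophil granule markers took 27.7 to 55.6% of the summed FPKM of a library, 8 erythroid markers 1.91 to 15.2%, and 12 early B lineage markers 0.0441 to 0.372%. Igkc, the constant region of the kappa light chain that pro-B cells do not yet make, was at 8871 to 66032 FPKM. Genes that define the early stages were low but unequal. Rag1 reached at most 1.81 FPKM and was listed at 0 in WT pro-B, while Il7r was at 1.48 to 21.2 FPKM and Dntt at 2.84 to 63.0 FPKM. Depth was 10800000 to 15300000 fragments, read from the step that 1 fragment makes in the values, in 6 libraries. In replicate 2 of Lf-/- pre-pro-B cells no step was found in the range searched, which would miss a much lower depth. That library had 12172 genes above 0 against 19477 to 20250 in the others. In such bulk samples, fewer cells of a type and less RNA per cell cannot be told apart.

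Vpreb1 and Vpreb2 are shown first because their near identity limits what their separate values mean. Both genes lie on chromosome 16 of GRCm38, where Vpreb1 (ENSMUSG00000059305) is at chr16:16868403-16870843 on the minus strand and Vpreb2 (ENSMUSG00000059280) at chr16:17980428-17981273 on the plus strand, 1109585 bases apart. Each has 2 exons. The 2 stretches of their coding sequences (GENCODE M21) that hold every difference are given 5′ to 3′, counted from the start codon, with the bases that differ in capitals.
Vpreb1, bases 1 to 93: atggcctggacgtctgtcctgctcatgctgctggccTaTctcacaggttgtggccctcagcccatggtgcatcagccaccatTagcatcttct
Vpreb2, bases 1 to 93: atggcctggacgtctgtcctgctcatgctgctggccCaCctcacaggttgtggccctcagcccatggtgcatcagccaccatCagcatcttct
Vpreb1, bases 260 to 429: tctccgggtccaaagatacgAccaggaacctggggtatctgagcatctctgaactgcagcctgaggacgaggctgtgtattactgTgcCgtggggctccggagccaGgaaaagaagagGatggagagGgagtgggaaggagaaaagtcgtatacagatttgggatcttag
Vpreb2, bases 260 to 429: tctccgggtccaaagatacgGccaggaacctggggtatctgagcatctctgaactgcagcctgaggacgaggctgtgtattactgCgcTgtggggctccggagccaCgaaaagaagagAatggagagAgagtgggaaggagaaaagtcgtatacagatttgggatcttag

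Over 429 bases the coding sequences differ at 9 positions (97.9% identity), and the longest stretch without a difference is 196 bases. Of the 142 encoded residues 4 differ. Whole transcripts matched at 97.4% over 759 bases, and blastn found no other such match for these transcripts. A fragment that covers none of the differing bases fits both genes, so the division of reads between Vpreb1 and Vpreb2 is uncertain, and their sum is the firmer value. Igll1 and Vpreb3 matched no other transcript.

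Igll1 (ENSMUSG00000075370, chr16:16860671-16863985, minus strand, 3 exons) lies 4418 bases from Vpreb1. Vpreb3 (ENSMUSG00000000903, chr10:75943057-75949657, plus strand, 2 exons) is on another chromosome. The stretches just before the start sites are shown because Igll1, Vpreb1 and Vpreb2 varied together and Vpreb3 in part apart from them. Each is printed 5′ to 3′ on the strand of its gene in GRCm38 (from RefSeq's GRCm38.p6 tables), Vpreb1 from chr16:16869256-16869361, Vpreb2 from chr16:17980315-17980420, Igll1 from chr16:16863986-16864085 and Vpreb3 from chr10:75948200-75948299. The Vpreb1 and Vpreb3 stretches lie before the RefSeq start but within the gene coordinates above, which include other annotated transcripts that start further upstream, and the Vpreb2 stretch lies before the GENCODE start. Capitals mark CAGGTG on either strand, a sequence that E proteins such as Tcf3 can bind, or ATTTGCAT, the octamer.
Vpreb1: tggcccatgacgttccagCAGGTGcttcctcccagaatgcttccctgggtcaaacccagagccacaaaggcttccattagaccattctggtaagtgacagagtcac
Vpreb2: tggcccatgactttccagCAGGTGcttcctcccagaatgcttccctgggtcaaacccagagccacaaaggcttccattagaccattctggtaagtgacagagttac
Igll1: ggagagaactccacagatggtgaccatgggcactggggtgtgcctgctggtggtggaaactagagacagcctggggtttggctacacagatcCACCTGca
Vpreb3: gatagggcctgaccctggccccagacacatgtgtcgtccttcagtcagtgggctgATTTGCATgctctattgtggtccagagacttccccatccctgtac

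The stretches of Vpreb1 and Vpreb2 differ at 2 of 106 bases (98.1% identity), as closely alike as their coding sequences. In the 250 bases before the RefSeq start, CAGGTG was found in Igll1, Vpreb1 and Vpreb2 and in 17.2% of 32851 promoters. ATTTGCAT was found in Vpreb3 and in 1.6% of promoters, and it was searched for only after the sequence had been seen. CAGCTG was found in Igll1 and Vpreb2 (13% of promoters) and CCCNNGGG, the core of Ebf1 sites, in Igll1 (11.8%). The Vpreb2 start differs by 137 bases between RefSeq and GENCODE, and the window before the RefSeq start was the one searched. These matches are descriptions of the letters and say nothing of what bound there.

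Vpreb3 was the most abundant of the genes in all 7 libraries, followed by Vpreb1, and then by Igll1 and Vpreb2, whose order changed between libraries. Igll1 was at 6.88 and 23.1 FPKM in WT and 23.4 and 15.7 FPKM in Lf-/- libraries of pre-pro-B cells, and at 7.67 FPKM in WT and 131 and 36.7 FPKM in Lf-/- libraries of pro-B cells (replicates 1 and 2 in that order, as below). Both Lf-/- pro-B libraries were above all others, and the other groups overlapped, since WT pro-B lay between the WT pre-pro-B libraries. How many of all genes share this order, which Vpreb1 also shows below, was not counted. Both Lf-/- pro-B libraries were above WT pro-B for 75.3% of all genes, and above both Lf-/- pre-pro-B libraries for 26.4%. The group means were 15.0 ± 11.5 FPKM in WT pre-pro-B, 19.6 ± 5.49 FPKM in Lf-/- pre-pro-B and 83.8 ± 66.6 FPKM in Lf-/- pro-B (SD, n = 2 each).

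Vpreb1 was at 12.1 and 70.0 FPKM in WT and 62.1 and 33.5 FPKM in Lf-/- libraries of pre-pro-B cells, and at 12.7 FPKM in WT and 351 and 71.7 FPKM in Lf-/- libraries of pro-B cells. The Lf-/- pro-B libraries were again the highest, but the lower of them was barely above WT pre-pro-B replicate 2. The means were 41.0 ± 40.9 FPKM in WT pre-pro-B, 47.8 ± 20.3 FPKM in Lf-/- pre-pro-B and 211 ± 197 FPKM in Lf-/- pro-B (SD, n = 2 each), so the SD in both the WT pre-pro-B and the Lf-/- pro-B group was nearly as large as the mean.

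Vpreb2 was at 3.15 and 25.1 FPKM in WT and 22.7 and 19.8 FPKM in Lf-/- libraries of pre-pro-B cells, and at 3.52 FPKM in WT and 115 and 25.0 FPKM in Lf-/- libraries of pro-B cells. Only Lf-/- pro-B replicate 1 stood above the rest, and Lf-/- pro-B replicate 2 was level with WT pre-pro-B replicate 2. The means were 14.1 ± 15.5 FPKM in WT pre-pro-B, 21.3 ± 1.99 FPKM in Lf-/- pre-pro-B and 69.8 ± 63.3 FPKM in Lf-/- pro-B (SD, n = 2 each).

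Vpreb3 followed another order. It was at 106 and 123 FPKM in WT and 750 and 297 FPKM in Lf-/- libraries of pre-pro-B cells, and at 38.1 FPKM in WT and 448 and 213 FPKM in Lf-/- libraries of pro-B cells. Every Lf-/- library was above every WT library, as for 9.87% of all genes, and the pre-pro-B and pro-B libraries of Lf-/- mice overlapped. The means were 114 ± 12.1 FPKM in WT pre-pro-B, 524 ± 320 FPKM in Lf-/- pre-pro-B and 330 ± 166 FPKM in Lf-/- pro-B (SD, n = 2 each).

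**Figure D1:**
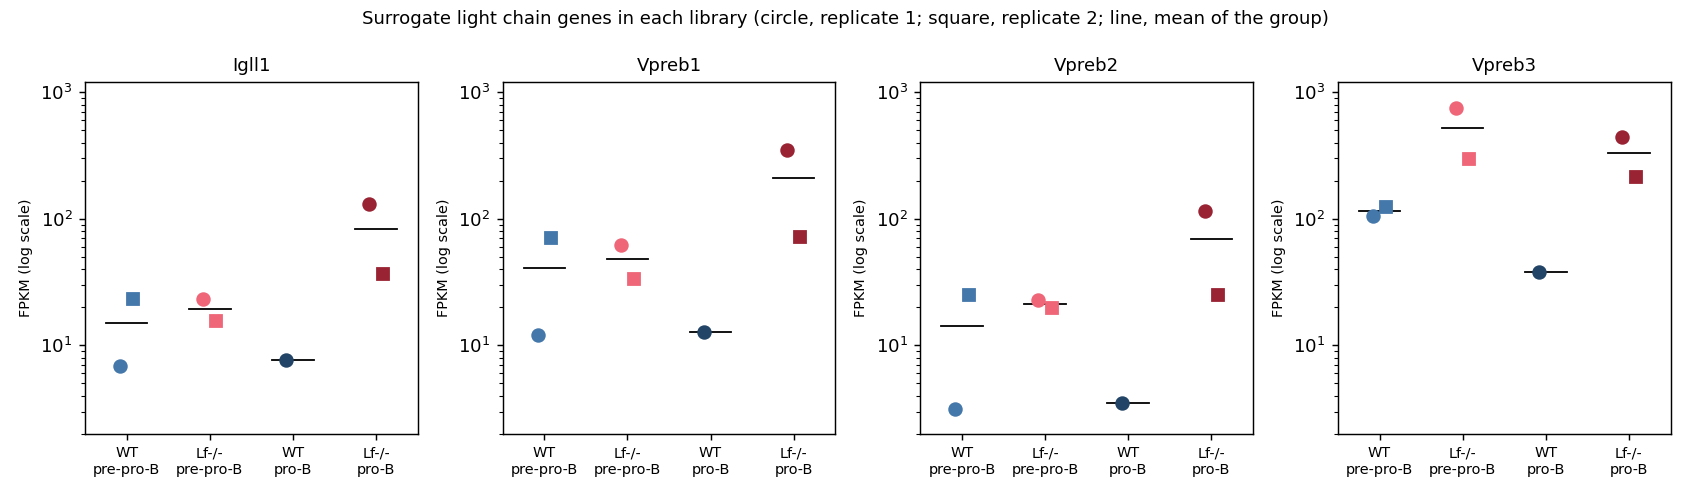
FPKM (log axis) of Igll1, Vpreb1, Vpreb2 and Vpreb3 in each library, with circles for replicate 1, squares for replicate 2 and a line at the mean of each group. Igll1, Vpreb1 and Vpreb2 share 1 shape with a wide gap between replicates, and Vpreb3 separates the 3 WT libraries (38.1 to 123 FPKM) from the 4 Lf-/- libraries (213 to 750 FPKM).

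The highest library exceeded the lowest 19.0-fold for Igll1, 29.0-fold for Vpreb1, 36.4-fold for Vpreb2 and 19.7-fold for Vpreb3. These values rested on about 65 to 1244 fragments for Igll1, 100 to 2937 for Vpreb1, 26 to 950 for Vpreb2 and 328 to 5069 for Vpreb3 in the 6 libraries whose depth could be read. In these libraries counting error is therefore small beside the gaps between replicates, which reached 7.97-fold for Vpreb2 in WT pre-pro-B cells. WT pre-pro-B replicate 1 was the lowest library for Igll1, Vpreb1 and Vpreb2, and WT pro-B was the lowest for Vpreb3.

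Across the 7 libraries the log2 levels of Igll1, Vpreb1 and Vpreb2 went together, with Pearson correlations of 0.987 for Igll1 and Vpreb1, 0.962 for Igll1 and Vpreb2 and 0.981 for Vpreb1 and Vpreb2. The last pair can share reads. Correlations with Vpreb3 were 0.641 for Igll1, 0.675 for Vpreb1 and 0.728 for Vpreb2. All of these are descriptions over libraries that share their depth and cell mixture between genes.

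The proportions within the pre-B cell receptor light chain were steadier than the levels. Igll1 was 0.330 to 0.602 times Vpreb1, and Vpreb2 was 0.260 to 0.365 times Vpreb1 in every library except Lf-/- pre-pro-B replicate 2, where it was 0.593 times. The sum of Igll1, Vpreb1 and Vpreb2 was 22.1 and 118 FPKM in WT and 108 and 69.0 FPKM in Lf-/- libraries of pre-pro-B cells, against 23.9 FPKM in WT and 596 and 133 FPKM in Lf-/- libraries of pro-B cells. Vpreb3 was 4.79 and 1.04 times this sum in WT and 6.93 and 4.31 times in Lf-/- libraries of pre-pro-B cells, against 1.59 times in WT and 0.751 and 1.60 times in Lf-/- libraries of pro-B cells. The ratio thus tended to be larger before the pro-B stage, but WT pre-pro-B replicate 2 fell among the pro-B libraries. The log2 level of Vpreb3 less the mean of the other 3 genes differed by -1.46 between pro-B and pre-pro-B libraries (exact permutation test, 3 against 4 libraries, two-sided p = 0.171, a comparison chosen after its values were seen).

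The first comparison asked whether the genes differed between Lf-/- and WT pre-pro-B cells. Differences are given in log2(FPKM + 1), where the added 1 shrinks those of weakly expressed genes. Vpreb3 was higher in Lf-/- cells by 2.04 (SE 0.57, adjusted p = 0.792, limma with Benjamini-Hochberg adjustment over 10793 genes). The other differences were 0.55 for Igll1 (SE 0.74), 0.61 for Vpreb1 (SE 0.98) and 1.09 for Vpreb2 (SE 0.97), with adjusted p of 0.843, 0.870 and 0.792 by limma. None of the 4 genes passed an adjusted p of 0.05, nor did any other gene (0% of 10793 genes). At an unadjusted p below 0.05 limma called 1, Vpreb3, beside 2.76% of all genes in that direction. The differences of Igll1, Vpreb1 and Vpreb2 turned negative without WT pre-pro-B replicate 1, at -0.25, -0.61 and -0.23, and were 1.36, 1.83 and 2.42 without WT pre-pro-B replicate 2. For Vpreb3 both Lf-/- libraries were above both WT libraries, as they were for 15.1% of all genes.

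In pro-B cells all 4 genes were higher in both Lf-/- libraries than in the WT library, which was also true of 75.3% of all genes tested. The differences were 3.02 for Igll1 (SE 0.91), 3.54 for Vpreb1 (SE 1.20), 3.60 for Vpreb2 (SE 1.19) and 2.99 for Vpreb3 (SE 0.69) on the log2 scale. Adjusted p was 0.822 for Igll1, Vpreb1 and Vpreb2 and 0.789 for Vpreb3 by limma, so 0 of the 4 genes passed, as did 0% of all genes. At an unadjusted p below 0.05 limma called all 4, beside 4.18% of all genes in that direction. Only 0.222% of genes had a larger difference than Igll1, 0.130% than Vpreb1, 0.111% than Vpreb2 and 0.259% than Vpreb3. The WT side is 1 library, whose spread is assumed to be that of the other groups. The median of all genes in this comparison was 0.48, and with libraries scaled by median ratios it was 0.014, where 2 of the 4 genes had an unadjusted p below 0.05. Without a filter on low values it was also 2, and with quantile normalization 1. Without Lf-/- pro-B replicate 1 the differences were 2.12 for Igll1, 2.40 for Vpreb1, 2.53 for Vpreb2 and 2.46 for Vpreb3, and 1 of the 4 had an unadjusted p below 0.05.

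Averaged over both stages, Vpreb3 was higher in Lf-/- cells by 2.51 (SE 0.45, 95% interval 1.46 to 3.57, adjusted p = 0.231, limma). Igll1 was higher by 1.79 (SE 0.59), Vpreb1 by 2.08 (SE 0.77) and Vpreb2 by 2.35 (SE 0.77), with adjusted p of 0.645, 0.729 and 0.645 by limma. No surrogate light chain gene passed, where 0.0278% of all genes did (3 genes, Ltf among them). All 4 had an unadjusted p below 0.05, beside 5.74% of all genes in that direction. This held for 2 of the 4 with median-ratio scaling, and for 1, Vpreb3, without a filter on low values or with quantile normalization. In this average the WT pro-B library weighs as much as both WT pre-pro-B libraries together, and it cannot be left out. With 1 of the other libraries left out at a time, these differences ran from 1.34 to 2.24 for Igll1 and 1.47 to 2.69 for Vpreb1. They ran from 1.68 to 3.01 for Vpreb2 and 2.18 to 2.85 for Vpreb3. The 2.18 was without Lf-/- pre-pro-B replicate 1, which left that group on replicate 2, with 12172 genes above 0 and no depth read.

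An exact permutation test of the 4 Lf-/- against the 3 WT libraries, whose smallest possible two-sided p is 0.0571, gave p = 0.0571 for Vpreb3, 0.114 for Igll1, 0.171 for Vpreb1 and 0.229 for Vpreb2. Vpreb3 alone had all 4 Lf-/- libraries above every WT library, a pattern that 9.87% of all genes shared. For Igll1 3 of the 4 Lf-/- libraries lay above every WT library, for Vpreb1 2, and for Vpreb2 1.

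**Figure D2:**
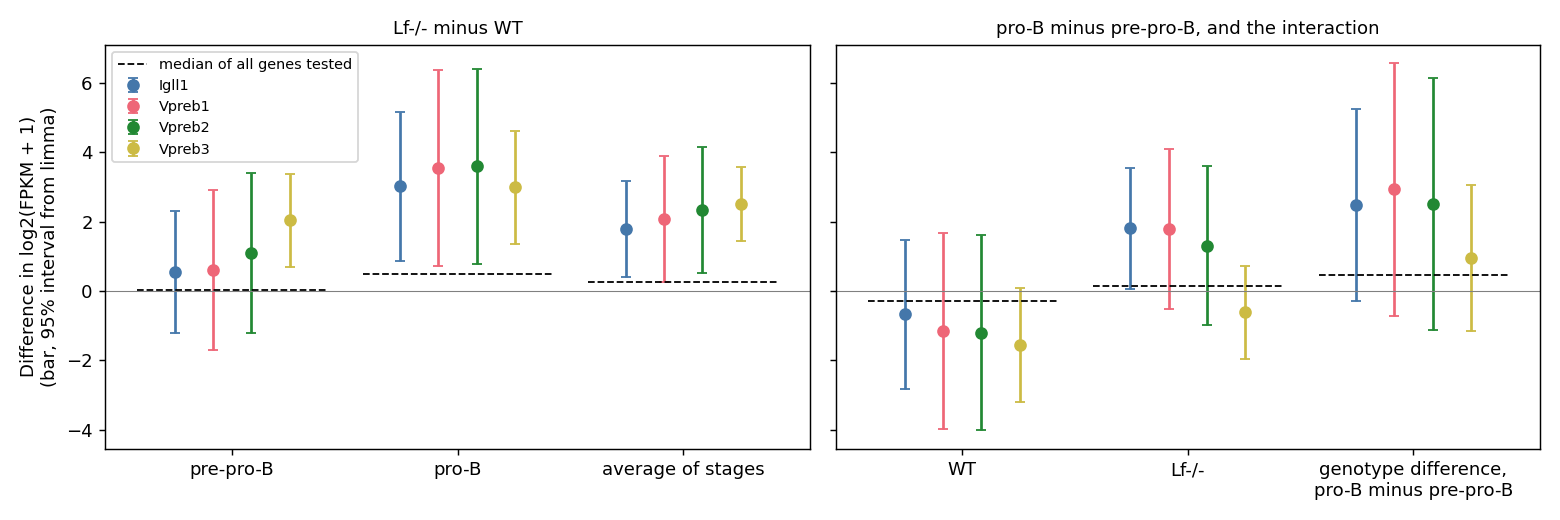
Differences in log2(FPKM + 1) of the 4 surrogate light chain genes with 95% intervals from limma, between genotypes on the left and between stages and for the interaction on the right, with a dashed line at the median of all 10793 genes. In pro-B cells and in the average of stages the intervals of all 4 genes lie above 0, and in Lf-/- cells Vpreb3 (-0.61) is on the other side of 0 from Igll1 (1.80).

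The next question was how the genes changed from the pre-pro-B to the pro-B stage. In Lf-/- cells Igll1 was higher in pro-B cells by 1.80 (SE 0.74, adjusted p = 0.798, limma), Vpreb1 by 1.78 (SE 0.98) and Vpreb2 by 1.30 (SE 0.97), while Vpreb3 differed by -0.61 (SE 0.57). Adjusted p was 0.798 for Vpreb1, 0.814 for Vpreb2 and 0.851 for Vpreb3 by limma. None passed, as for all genes (0%), and 1 of 4, Igll1, had an unadjusted p below 0.05, beside 5.00% of genes in that direction. Igll1 lost this call with a pseudocount of 0.1, without a filter on low values, with median-ratio scaling, with quantile normalization and with the replicate number as a block. Both pro-B libraries lay above both pre-pro-B libraries for Igll1, Vpreb1 and Vpreb2, as for 26.4% of all genes. The Vpreb3 difference became 0.057 without Lf-/- pre-pro-B replicate 1.

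In WT cells the single pro-B library stood below the mean of the pre-pro-B libraries for all 4 genes. The differences were -0.67 for Igll1 (SE 0.91), -1.15 for Vpreb1 (SE 1.20), -1.20 for Vpreb2 (SE 1.19) and -1.56 for Vpreb3 (SE 0.69), each with an adjusted p of 1 by limma. None passed (0% of all genes did), and none had an unadjusted p below 0.05, which 0.750% of all genes had. Without WT pre-pro-B replicate 2 the differences of Igll1, Vpreb1 and Vpreb2 were 0.14, 0.068 and 0.12. Only Vpreb3 was below both WT pre-pro-B libraries, as 64.4% of all genes were.

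The genotype difference in pro-B cells exceeded that in pre-pro-B cells by 2.47 for Igll1 (SE 1.17), 2.93 for Vpreb1 (SE 1.54), 2.51 for Vpreb2 (SE 1.54) and 0.95 for Vpreb3 (SE 0.90). This interaction had an adjusted p of 0.990 by limma for each gene, 0 of 4 had an unadjusted p below 0.05 (2.74% of all genes did), and 95% intervals included 0, such as -0.72 to 6.58 for Vpreb1. A different genotype effect at the 2 stages was thus not shown. Without WT pre-pro-B replicate 1, 3 of the 4 genes had an unadjusted p below 0.05 in this comparison.

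Cd79a and Cd79b, the signaling chains carried at all stages of the B lineage, differed between genotypes as well. Cd79a was at 261 and 203 FPKM in WT and 1518 and 993 FPKM in Lf-/- libraries of pre-pro-B cells, and at 86.1 FPKM in WT and 1105 and 731 FPKM in Lf-/- libraries of pro-B cells. Every Lf-/- library was above every WT library, as for 9.87% of all genes, and the average difference was 2.89 (SE 0.33, adjusted p = 0.0838, limma). For Cd79b it was 2.84 (SE 0.32, adjusted p = 0.0838, limma). Most of the early B lineage marker sum in Lf-/- libraries came from these 2 genes. Without them the other 10 markers made up 0.0256 to 0.0490% of summed FPKM in WT and 0.0531 to 0.0966% in Lf-/- libraries. This smaller gap still held no overlap. In every library most of that sum was Cd24a. By itself Cd24a overlapped between genotypes, at 197 to 341 FPKM in WT and 297 to 513 FPKM in Lf-/- libraries.

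Set against Cd79a in the same library, the surrogate light chain genes did not separate the genotypes. The sum of Igll1, Vpreb1 and Vpreb2 was 8.48 and 58.1% of Cd79a in WT and 7.13 and 6.95% in Lf-/- libraries of pre-pro-B cells, against 27.8% in WT and 53.9 and 18.3% in Lf-/- libraries of pro-B cells. WT pre-pro-B replicate 2 was the highest, and the Lf-/- pre-pro-B libraries the lowest. Vpreb3 was 40.6 and 60.5% of Cd79a in WT and 49.4 and 29.9% in Lf-/- libraries of pre-pro-B cells, against 44.2% in WT and 40.5 and 29.2% in Lf-/- libraries of pro-B cells. This share stayed within 29.2 to 60.5% while the level of Vpreb3 itself ranged 19.7-fold.

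Relative to the mean log2 level of Cd79a and Cd79b, the Lf-/- libraries differed from the WT libraries by -0.98 for Igll1, -0.77 for Vpreb1, -0.51 for Vpreb2 and -0.40 for Vpreb3. Exact permutation tests of 4 against 3 libraries gave two-sided p = 0.4, 0.457, 0.571 and 0.343. With Dntt as the reference, added after seeing the data, the direction turned for Vpreb1, Vpreb2 and Vpreb3, at 0.032, 0.29 and 0.40 (exact permutation p = 1, 0.686 and 0.971). Between stages, pro-B libraries differed from pre-pro-B libraries by 1.53 for Igll1, 1.36 for Vpreb1, 1.11 for Vpreb2 and -0.13 for Vpreb3 on this relative scale (exact permutation p = 0.171, 0.343, 0.4 and 0.857, 3 against 4 libraries). The part of the cell mixture in the differences between genotypes was not tested beyond these ratios.

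**Figure D3:**
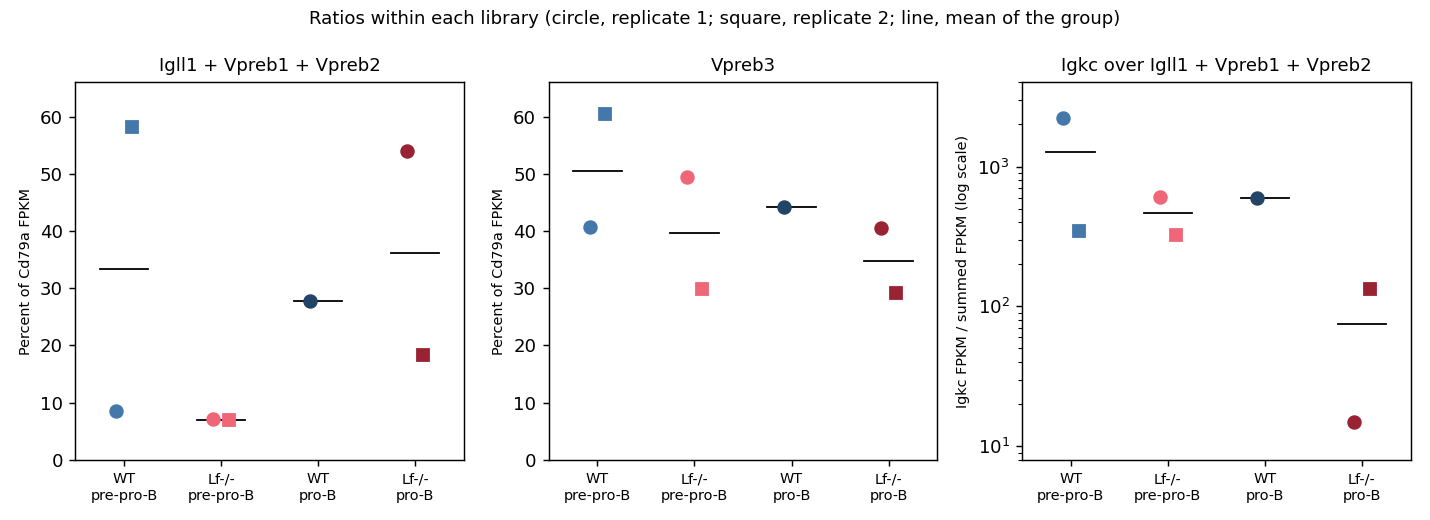
Ratios within each library, with circles for replicate 1, squares for replicate 2 and a line at the mean of each group: the summed FPKM of Igll1, Vpreb1 and Vpreb2 as a percentage of Cd79a (left), Vpreb3 as a percentage of Cd79a (middle), and Igkc FPKM over that sum (right, log axis). Genotypes overlap in the first 2 panels, and the Lf-/- pro-B libraries have the lowest Igkc ratios at 14.9 and 134.

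The conventional kappa light chain outweighed the surrogate light chain in every library. Igkc was 2207 and 345 times the sum of Igll1, Vpreb1 and Vpreb2 in WT and 610 and 322 times in Lf-/- libraries of pre-pro-B cells, against 592 times in WT and 14.9 and 134 times in Lf-/- libraries of pro-B cells. The Lf-/- pro-B libraries were the lowest, with both the highest surrogate light chain levels and, in replicate 1, the lowest Igkc level of the series (8871 FPKM). Igkc averaged -0.19 between genotypes (SE 0.53, adjusted p = 0.900, limma).

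Among the 18 partners and proximal signaling genes of the pre-B cell receptor, 18 had a higher mean in Lf-/- cells in the average of stages, 7 of them at an unadjusted p below 0.05 and 0 at an adjusted p of 0.05 by limma. Of all genes tested, 71.3% were higher and 5.74% were higher at that unadjusted p. The median difference of the list was 0.64, beside 0.25 for all genes tested. Blnk, the adaptor that links Syk to downstream signals, differed by 2.28 (SE 0.36, adjusted p = 0.158, limma). Ighm, the heavy chain partner itself, differed by 0.47 (SE 0.64, adjusted p = 0.809, limma). With median-ratio scaling 16 of the 18 were higher, with a median of 0.30 beside -0.046 for all genes. The share of all genes that were higher under that scaling was not counted, here or for the lists below.

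Of 16 transcription factors of the B lineage, 16 were higher in Lf-/- cells in the average of stages, as were 71.3% of all genes. Of the 16, 10 were higher at an unadjusted p below 0.05 (5.74% of all genes) and 0 at an adjusted p of 0.05 by limma. The median was 1.18 beside 0.25 for all genes. The largest differences were those of Spib (2.13, SE 0.48, adjusted p = 0.372), Irf4 (1.74, SE 0.45, adjusted p = 0.467), Sox4 (1.67, SE 0.51, adjusted p = 0.600) and Foxo1 (1.61, SE 0.42, adjusted p = 0.476) by limma. Irf4 and Spib are known to act at the step from the pre-B cell receptor to light chain rearrangement, and Sox4 and Foxo1 in early B cell survival and recombination. With median-ratio scaling 13 of the 16 were higher, with a median of 0.88 beside -0.046 for all genes.

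Of 10 genes of recombination and the pro-B stage 7 could be tested, and 7 were higher in Lf-/- cells, as were 71.3% of all genes. Of the 7, 3 were higher at an unadjusted p below 0.05 (5.74% of all genes) and 0 at an adjusted p of 0.05 by limma. The median was 0.92 beside 0.25 for all genes. Dntt, which adds bases at heavy chain joints, differed by 2.10 (SE 0.67, adjusted p = 0.622, limma). Il7r, the receptor of interleukin 7, differed by 1.88 (SE 0.39, adjusted p = 0.328), Flt3, a receptor of early progenitors, by 1.20 (SE 0.78, adjusted p = 0.729) and Rag1, a recombinase subunit, by 0.92 (SE 0.28, adjusted p = 0.600). Dntt ran from 2.84 FPKM in WT pro-B to 63.0 FPKM in Lf-/- pro-B replicate 1, and the latter was also the highest library of Igll1, Vpreb1 and Vpreb2.

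Of 11 conventional light chain and later B cell genes 10 could be tested. In Lf-/- cells 8 of the 10 were higher, near the 71.3% of all genes that were. At an unadjusted p below 0.05, 7 were higher (5.74% of all genes), and 0 passed an adjusted p of 0.05 by limma. The median was 1.76 beside 0.25 for all genes. Ighd, the delta heavy chain of mature B cells, differed by 3.42 (SE 0.53, adjusted p = 0.149, limma) and Fcmr, a receptor for IgM, by 3.34 (SE 0.42, adjusted p = 0.106). Ms4a1, which encodes CD20, differed by 2.66 (SE 0.35, adjusted p = 0.113) and the lambda constant region gene Iglc3 by 2.53 (SE 0.49, adjusted p = 0.299). These are the 4 largest of the list, and the other 6 ran from -0.19 for Igkc to 1.90 for Cd74. With median-ratio scaling 8 of the 10 were higher, with a median of 1.43 beside -0.046 for all genes.

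**Figure D4:**
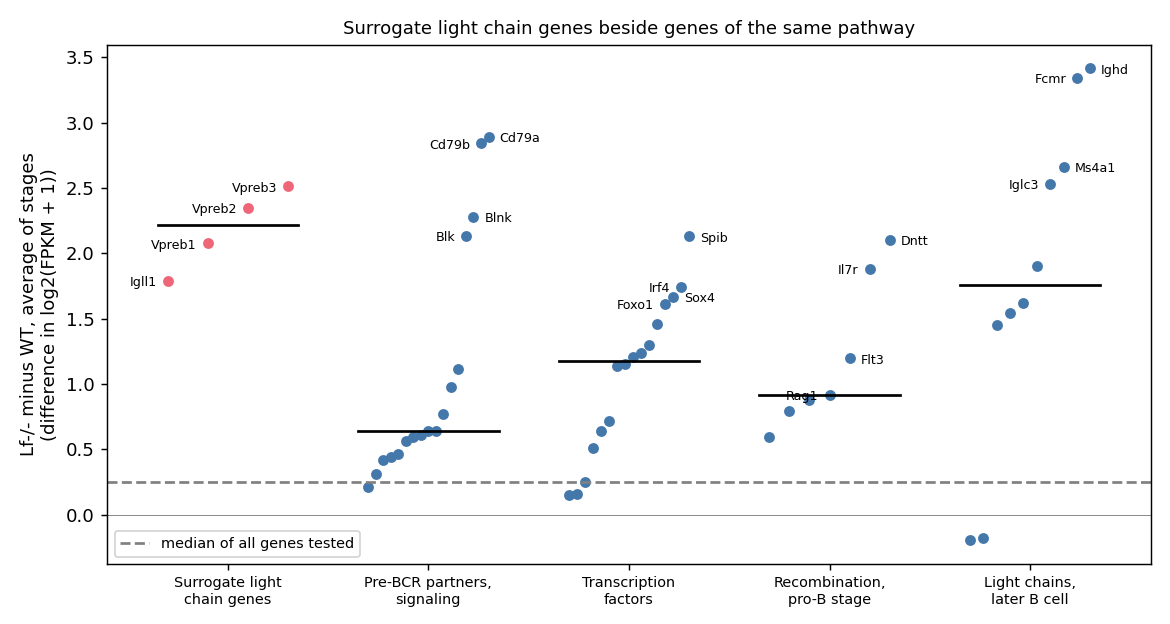
Differences between Lf-/- and WT cells, averaged over stages, in log2(FPKM + 1) for the surrogate light chain genes and for the tested genes of 4 lists, 1 point a gene (1 gene of the pre-B cell receptor list is not drawn), with a bar at the median of each whole list and a dashed line at the median of all 10793 genes (0.25). The surrogate light chain genes (1.79 to 2.51) lie between the median of the later B cell genes (1.76) and their top, and below Cd79a (2.89).

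The tested genes whose log2 level over the 7 libraries was most like the mean of Igll1, Vpreb1 and Vpreb2 were Dmap1 (Pearson r = 0.978), Kdm1a (r = 0.976), Nrgn (r = 0.971), Zmiz1 (r = 0.956) and Eps15l1 (r = 0.948). Kdm1a encodes a histone demethylase and Eps15l1 an endocytic adaptor. Of the B lineage genes looked up, Dntt stood highest, at rank 183 (r = 0.811). Tcf3 (rank 557, r = 0.714) and Blnk (rank 664, r = 0.695) came before Cd79a (rank 921, r = 0.653). Those most like Vpreb3 were Neil1 (r = 0.987), Snx8 (r = 0.986), Parp1 (r = 0.982), Gm9855 (r = 0.980) and Jund (r = 0.978). Neil1 and Parp1 act in DNA repair and Jund is a subunit of AP-1. For Vpreb3, Siglecg stood highest of the genes looked up, at rank 10 (r = 0.970). Cd79a was at rank 11 (r = 0.970) and Ebf1, a factor that starts the B lineage program, at rank 17 (r = 0.959). These ranks describe 10793 genes over 7 libraries that share depth and cell mixture.

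The neighbouring genes were looked at within 50000 bases, a window set after the values were known. Top3b, which overlaps Vpreb1 on the opposite strand, was at 2.02 to 5.50 FPKM and differed by 0.25 between genotypes (SE 0.36, adjusted p = 0.817, limma). Whether strand was used in counting is not given in the sources used here. Chchd10, 5310 bases from Vpreb3, was at 90.5 and 73.2 FPKM in WT and 347 and 165 FPKM in Lf-/- libraries of pre-pro-B cells, and at 42.1 FPKM in WT and 307 and 183 FPKM in Lf-/- libraries of pro-B cells. Every Lf-/- library was above every WT library for Chchd10, as for 9.87% of all genes, with a difference of 2.0 (SE 0.38, adjusted p = 0.299, limma). Of the other 3 neighbours of Vpreb3 that could be tested, Mmp11 showed the same order at lower levels (0.0260 to 0.490 FPKM in WT and 1.03 to 5.45 FPKM in Lf-/- libraries). Smarcb1 and Derl3 overlapped between genotypes, with differences of 0.82 and 0.62.

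Markers of other cells moved in part with genotype. The neutrophil granule markers made up 41.3 and 42.0% of summed FPKM in WT and 39.5 and 27.7% in Lf-/- libraries of pre-pro-B cells, and 55.6% in WT and 37.2 and 42.1% in Lf-/- libraries of pro-B cells. In the average of stages 13 of 18 were lower in Lf-/- cells, where 71.3% of all genes were higher. WT pro-B, the lowest or next to lowest library for each surrogate light chain gene, had the largest neutrophil share. WT pre-pro-B replicate 1, the lowest for Igll1, Vpreb1 and Vpreb2, had 41.3%, near the 42.0% of WT pre-pro-B replicate 2. The 10 plasmacytoid dendritic cell markers summed to 244 to 530 FPKM in WT and 1224 to 3377 FPKM in Lf-/- libraries, most of it from Ly6d, which early B cells also express. Of the others, Siglech, Ccr9, Klk1, Cox6a2, Pacsin1 and Runx2 overlapped between genotypes. Ly6d, Bst2, Tcf4 and Irf8 were higher in every Lf-/- library than in every WT library, as were 9.87% of all genes. Monocyte markers made up 0.0885 to 0.262%, T and NK cell markers 0.0605 to 0.167% and plasma cell markers 0.0367 to 0.233%, with overlap between genotypes in each. Nearly all of the T and NK cell sum was Nkg7 in most libraries, and without it the other 9 markers summed to 22.4 and 13.4 FPKM in WT and 7.68 and 99.9 FPKM in Lf-/- libraries of pre-pro-B cells, and to 22.8 FPKM in WT and 87.5 and 95.6 FPKM in Lf-/- libraries of pro-B cells. In pro-B cells 8 of the 9 T and NK cell markers tested were higher in Lf-/- libraries, 5 at an unadjusted p below 0.05 (4.18% of all genes) and 0 at an adjusted p of 0.05 by limma, with a median of 1.29. Both Lf-/- libraries were above WT pro-B for 75.3% of all genes, and the median of all genes was 0.48. The 4 surrogate light chain genes had a higher mean in Lf-/- cells here and in pre-pro-B cells. In pre-pro-B cells 4 of these 9 markers were higher and 5 lower. Ncr1, a receptor of NK cells, was at 0.632 FPKM in WT and 6.93 and 6.78 FPKM in Lf-/- pro-B libraries. The part of these cells in the surrogate light chain differences was not tested.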

How the data were processed

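RNA of sorted bone marrow cells of both genotypes and stages was sequenced, and the authors deposited 1 table per library with 1 value per gene, without replicates pooled. The values were read as FPKM, as the deposited numbers are not whole. In addition, many genes with a single transcript shared nearly 1 value once multiplied by transcript length. This was found in all libraries but Lf-/- pre-pro-B replicate 2. The submitters' processing notes name TopHat, Cufflinks, HTSeq, DESeq and GRCm38 without roles or versions. How fragments that fit several genes were counted is not given in the sources used here. No file of the second WT pro-B sample was used here.

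Values were transformed to log2(FPKM + 1). All 7 libraries were fitted with limma 3.58.1 (R 4.3.3; lmFit, eBayes with a trend; 4 group means, 3 residual degrees of freedom), for the 10793 genes that reached 1 FPKM in 2 or more libraries. Tests were two-sided with Benjamini-Hochberg adjustment over all of these genes, and the fit was tested on simulated data. Exact permutation tests used scipy 1.17.1. Identifiers were matched to GENCODE M21 (52403 of 52550), transcripts were compared with blastn 2.17.0, and promoters came from RefSeq (GRCm38.p6). Named genes were the 4 surrogate light chain genes, Cd79a, Cd79b, Ltf, at most 4 genes per list with the largest averaged genotype difference, and the 5 genes most correlated with each pattern. Other genes were named after their values were seen. The genes and lists were chosen with earlier results of these data known. Alternatives were a pseudocount of 0.1, no filter, a filter in every library, limma without a trend, totals without neutrophil genes, a fit on Lf-/- libraries alone, median-ratio scaling, quantile normalization, a replicate block, another reference gene and each replicate left out. The values of 1 gene, and 1 planned set of reference genes that held it, are not reported here.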

Additional observations from a re-analysis of the deposited data

How the results depend on the processing

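With 1 to 2 libraries a group, the error of a difference rests on 3 residual degrees of freedom and on the spread borrowed from other genes, and WT pro-B adds none. No alternative without a left-out library brought a surrogate light chain gene past an adjusted p of 0.05, and none of them turned a limma difference. Leaving out WT pro-B replicate 1 gives no value for the comparisons that need it. Depth limits Vpreb2 most, at about 26 fragments in its lowest library, and the division of reads between Vpreb1 and Vpreb2 could not be checked.

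Differences between replicates were nearly uncorrelated across groups. The correlations were 0.039 for WT and Lf-/- pre-pro-B, 0.053 for WT pre-pro-B and Lf-/- pro-B, and -0.013 for both Lf-/- stages. Only the last could involve the same mice, and it includes the library whose depth could not be read. Whether a number marks the same mouse is therefore not decided. With the replicate block, Vpreb3 differed between genotypes by 2.70 in the average of stages, and the number of genes with an unadjusted p below 0.05 was 0 for stage in Lf-/- cells and 1 for stage in WT cells.

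The number of surrogate light chain genes with an unadjusted p below 0.05 for stage in Lf-/- cells was also 0 with a pseudocount of 0.1, without a filter, with median-ratio scaling and with quantile normalization. For genotype in pro-B cells it was 2 without a filter, 2 with median-ratio scaling and 1 with quantile normalization, and for the average of stages 1, 2 and 1. The cause was not tested.

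Relative to Dntt, a reference added after seeing the data, the genotype differences turned to 0.032 for Vpreb1, 0.29 for Vpreb2 and 0.40 for Vpreb3. The reference differs by construction.

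Leaving out 1 library at a time, the genotype difference in pre-pro-B cells ran from -0.25 to 1.36 for Igll1, -0.61 to 1.83 for Vpreb1 and -0.23 to 2.42 for Vpreb2, with 1 to 2 genes at an unadjusted p below 0.05. The stage difference in WT cells ran from -1.47 to 0.14, -2.37 to 0.068 and -2.53 to 0.12 for the same genes (0 to 1 genes), and that of Vpreb3 in Lf-/- cells from -1.28 to 0.057 (0 to 2 genes). The averaged genotype difference of Vpreb3 ran from 2.18 to 2.85, with 0 to 1 genes past the adjusted threshold and 1 to 4 at an unadjusted p below 0.05. The genotype comparison in pro-B cells had 1 to 4 such genes and the interaction 0 to 3. Relative to Cd79a and Cd79b, Vpreb2 ran from -1.32 to 0.28. Gene counts in this section are of the 4 surrogate light chain genes, and the shares of all genes under these alternatives are not given.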
